A study of Drosophila melanogaster with 3 samples.

Results

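The genes described here are the 10 nuclear receptor genes of the ecdysone cascade, EcR, usp, Hr3, Hr4, Hr38, Hr39, Hr78, ftz-f1, Eip75B and Eip78C. They were chosen by name, and they are 10 of the 13945 protein-coding genes on the main chromosomes of the annotation. Chromatin immunoprecipitation followed by sequencing (ChIP-seq) had been carried out with an antibody against GFP, and peaks were read in and around each gene. Of the 10 genes, 9 carried the summit of a peak no more than 500 bp from one of their transcript starts, and Hr39 did not. Such a summit was found for 24.2% of all protein-coding genes. Among genes of at least 10 kb, a length that 8 of the 10 reach, the share was 48.1%. The gene bodies held 114 summits, and the strongest of them lay in introns, kilobases away from any start of their own gene.

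All 3 libraries belonged to 1 group, and there was no second condition. Each came from whole Drosophila melanogaster prepupae of the strain CG6163-GFP, in which an insertion makes a fusion of CG6163 with eGFP. The labels give the animals' age as unknown stage, and sex was not collected. Chromatin of whole animals mixes all tissues, so a peak in few cells and a weaker peak in many cells cannot be told apart. The labels point to a control experiment, which is not analysed here, and they give no promoter or cell type for the fusion.

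Pulses of the steroid 20-hydroxyecdysone drive larval molts and metamorphosis in flies. The hormone binds the ecdysone receptor, a pair of the nuclear receptors EcR and Usp, which switches on early genes such as Eip75B. The early products and later receptors such as Hr3 and Hr4 then control the next genes in turn, among them ftz-f1 in the mid prepupa. Several of these genes are long and begin at more than 1 promoter, which gives receptor isoforms with different N termini.

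Positions were taken from the authors' conservative list for the whole series, with 10894 peaks, of which 10892 lay on the main chromosomes. Which libraries were compared to make the conservative list is not stated. The signal of the conservative list is the authors' own value per peak and ranks peaks within that list only. A member summit below is a summit in the body of one of the 10 genes or within 500 bp of one of its own starts, and there were 117 of them. A library matched a peak when its own thresholded list held a peak sharing at least 1 bp. Replicates 1, 2 and 3 had lists of 7449, 7920 and 5844 peaks, or 7071 ± 1088 (SD, n = 3). Replicate 3 had the fewest peaks, and matches were fewest there too, at 40.2% of the member summits against 58.1% in replicate 1 and 67.5% in replicate 2. The ranked lists, which keep weak peaks, ran the other way, with 70608, 74274 and 85335 peaks. Read totals were not used, so sequencing depth is not known here.

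The sequences at the 6 strongest member summits are shown first, because they carry the highest signals of these genes. All lie in introns. Each runs 50 bases to either side of the summit on the plus strand of dm6, 5′ to 3′. Capitals mark matches on either strand to a short motif that was searched.
Hr4, chrX:1951861-1951961: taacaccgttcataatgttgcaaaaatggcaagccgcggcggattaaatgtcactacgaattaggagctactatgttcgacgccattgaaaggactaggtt
Hr4, chrX:1947696-1947796: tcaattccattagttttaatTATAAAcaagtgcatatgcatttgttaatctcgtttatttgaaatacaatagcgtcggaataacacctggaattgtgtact
Eip75B, chr3L:18009139-18009239: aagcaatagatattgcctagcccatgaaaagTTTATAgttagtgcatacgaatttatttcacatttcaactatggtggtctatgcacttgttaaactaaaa
Eip78C, chr3L:21253851-21253951: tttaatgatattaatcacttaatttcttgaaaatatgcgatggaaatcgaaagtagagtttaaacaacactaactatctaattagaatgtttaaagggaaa
Hr4, chrX:1948682-1948782: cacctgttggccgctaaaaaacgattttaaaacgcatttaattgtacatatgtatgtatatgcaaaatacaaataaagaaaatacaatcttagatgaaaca
Eip75B, chr3L:18011842-18011942: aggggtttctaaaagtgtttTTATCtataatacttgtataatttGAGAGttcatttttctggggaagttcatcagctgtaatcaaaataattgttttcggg
The first and strongest of these, in Hr4, matched none of the 8 motifs searched. The next Hr4 window and the first Eip75B window each held 1 copy of TATAAA on either strand, and the second Eip75B window held 1 GAGAG and 1 GATAA. The share of A and T in these windows ran from 56.4% to 75.2%, beside a median of 62.4% for all conservative windows. Only the first window, at 56.4%, lay below that median.

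The next windows lie close to transcript starts. They are the strongest start summits of 3 further genes, usp, Hr38 and ftz-f1, with capitals used in the same way.
usp, chrX:2042353-2042453: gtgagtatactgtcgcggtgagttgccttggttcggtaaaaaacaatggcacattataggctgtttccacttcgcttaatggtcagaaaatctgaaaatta
Hr38, chr2L:20714652-20714752: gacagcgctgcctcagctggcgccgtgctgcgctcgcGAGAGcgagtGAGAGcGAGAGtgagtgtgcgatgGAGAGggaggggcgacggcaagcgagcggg
ftz-f1, chr3L:18765818-18765918: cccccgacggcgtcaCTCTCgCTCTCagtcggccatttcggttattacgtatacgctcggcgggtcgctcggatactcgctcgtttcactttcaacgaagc
The Hr38 window held 4 copies of GAGAG and 29.7% A and T, the lowest share of all 117 member windows. The ftz-f1 window held 2 copies and 41.6% A and T. The usp window matched none of the motifs and had 59.4% A and T, within the range of the intronic windows above. Over all 14 start windows the share of A and T ran from 29.7% to 70.3%.

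Across the 10 genes, 9 had a conservative summit within 500 bp of a start, against 24.2% of all protein-coding genes. Among genes with a body of at least 10 kb the share was 48.1%, and 7 of the 8 members of that length had one. Members had a median of 3 distinct starts, against 1 for all protein-coding genes and 2 for those of at least 10 kb. A gene with more starts has more windows in which a summit can fall. Taken start by start, 16 of the 29 distinct starts had a summit, against 23.8% of all distinct starts of protein-coding genes. No test was made over the 10 genes, because they were chosen with results of these data known. Counted from each library's own list, replicates 1, 2 and 3 had 6, 8 and 5 bound genes, a mean of 6.33 ± 1.53 (SD, n = 3). EcR, Eip75B, Hr3, Hr78 and ftz-f1 were bound in all 3 of these lists, usp in replicates 1 and 2, and Eip78C and Hr4 in replicate 2 only, while Hr38 and Hr39 were bound in none. With only those conservative peaks that all 3 libraries matched, 4 genes remained bound, namely EcR, Eip75B, Hr3 and Hr78. The share of all protein-coding genes was not counted for these peaks or for the libraries' own lists. The counts of bound genes under them therefore stand without a background.

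EcR encodes the subunit of the ecdysone receptor that binds the hormone, and it spans 81.2 kb on chromosome arm 2R. It held 19 body summits, all in introns, or 2.34 per 10 kb. Of its 4 starts, 3 had a summit. The start of transcripts RB and RC had a signal of 370 in the conservative list, and the neighbouring start of RG lay near the same summit. In the libraries' own thresholded lists this peak had signals of 122, 178 and 72.0 in replicates 1, 2 and 3, each on the scale of its own list. That placed it at percentiles 79.9, 88.5 and 57.7 of those lists, so it ranked lowest in replicate 3. The start of RD and RE had a signal of 222, with 84.8, 57.2 and 64.2 in the 3 libraries. The most upstream start, that of RA, lay 2151 bp from the nearest conservative summit, although replicate 1 alone held a thresholded peak near it, with a signal of 60.4. The strongest EcR peak, with a signal of 482, lay 2734 bp upstream of the RB and RC start, inside an intron of the longer transcripts. It had 149, 187 and 172 in the 3 libraries. Of the 19 summits, 9 were matched in all 3 libraries and 4 in none.

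usp encodes the partner of EcR, the fly counterpart of the vertebrate retinoid X receptors. It is a short gene of 3.51 kb on the X chromosome and held 0 body summits. Its upstream start, that of RB, had a summit 92 bp away with a signal of 115, which lay within 500 bp of a start of Actn (alpha actinin) as well. Only replicate 1 called this peak in its thresholded list, with a signal of 39.5, while the ranked lists of replicates 2 and 3 held it at 37.8 and 33.5. Replicate 2 had instead a thresholded peak of 42.5 near the downstream start, that of RA. Both parts of the receptor thus had a summit at a start, but the EcR peaks were called in all 3 libraries and the usp peak in 1. The strongest peak within 10 kb of usp, at 1093, lay 7970 bp upstream of its RB start and at a start of moody, which encodes a receptor of the blood-brain barrier.

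Eip75B, an early gene whose product binds heme and represses Hr3 activity, is the longest of the set with 113.7 kb on 3L and 7 distinct starts. It held 31 body summits, the most of the 10 genes, and 32 with 1 more just upstream of its first start. Of the starts, 4 had a summit, spread over the whole gene. The RC start had the highest signal, 410, with 121, 129 and 125 in replicates 1, 2 and 3. These are percentiles 79.6, 79.8 and 82.2 of the 3 thresholded lists, a similar rank in each. The RA start had 231, with 66.9, 110 and 67.6. The RG start had 205, and its peak was thresholded in replicates 1 and 2 at 93.5 and 79.0 but only ranked in replicate 3, at 36.3. The most upstream start, that of RF, had 171, with 70.2 and 66.2 in replicates 1 and 2 and no ranked summit near it in replicate 3. The starts of RB, RD and RE had none, although the nearest summit to RE was just outside the window, at 565 bp. The strongest Eip75B peaks were intronic. One had a signal of 1067, with 390, 340 and 316 in the libraries, and lay 9368 bp upstream of the RC start. The other had 660, with 218, 251 and 213, and lay 12071 bp upstream of it. The remaining summits were weaker, and 8 of the 32 were matched in no library.

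Eip78C, a receptor gene related to Eip75B, spans 39.9 kb on 3L. Its 7 body summits amounted to 1.75 per 10 kb, and 1 of its 3 starts, that of RB, had a summit, with a signal of 140. This peak was thresholded only in replicate 2, at 60.1, and ranked at 35.6 and 36.6 in replicates 1 and 3. Its strongest peak, at 831, lay in an intron 13554 bp downstream of that start and had 344, 294 and 182 in the 3 libraries. The relation was the same as in Eip75B, with a weaker peak at the start and a stronger one deep in the gene.

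**Figure D1:**
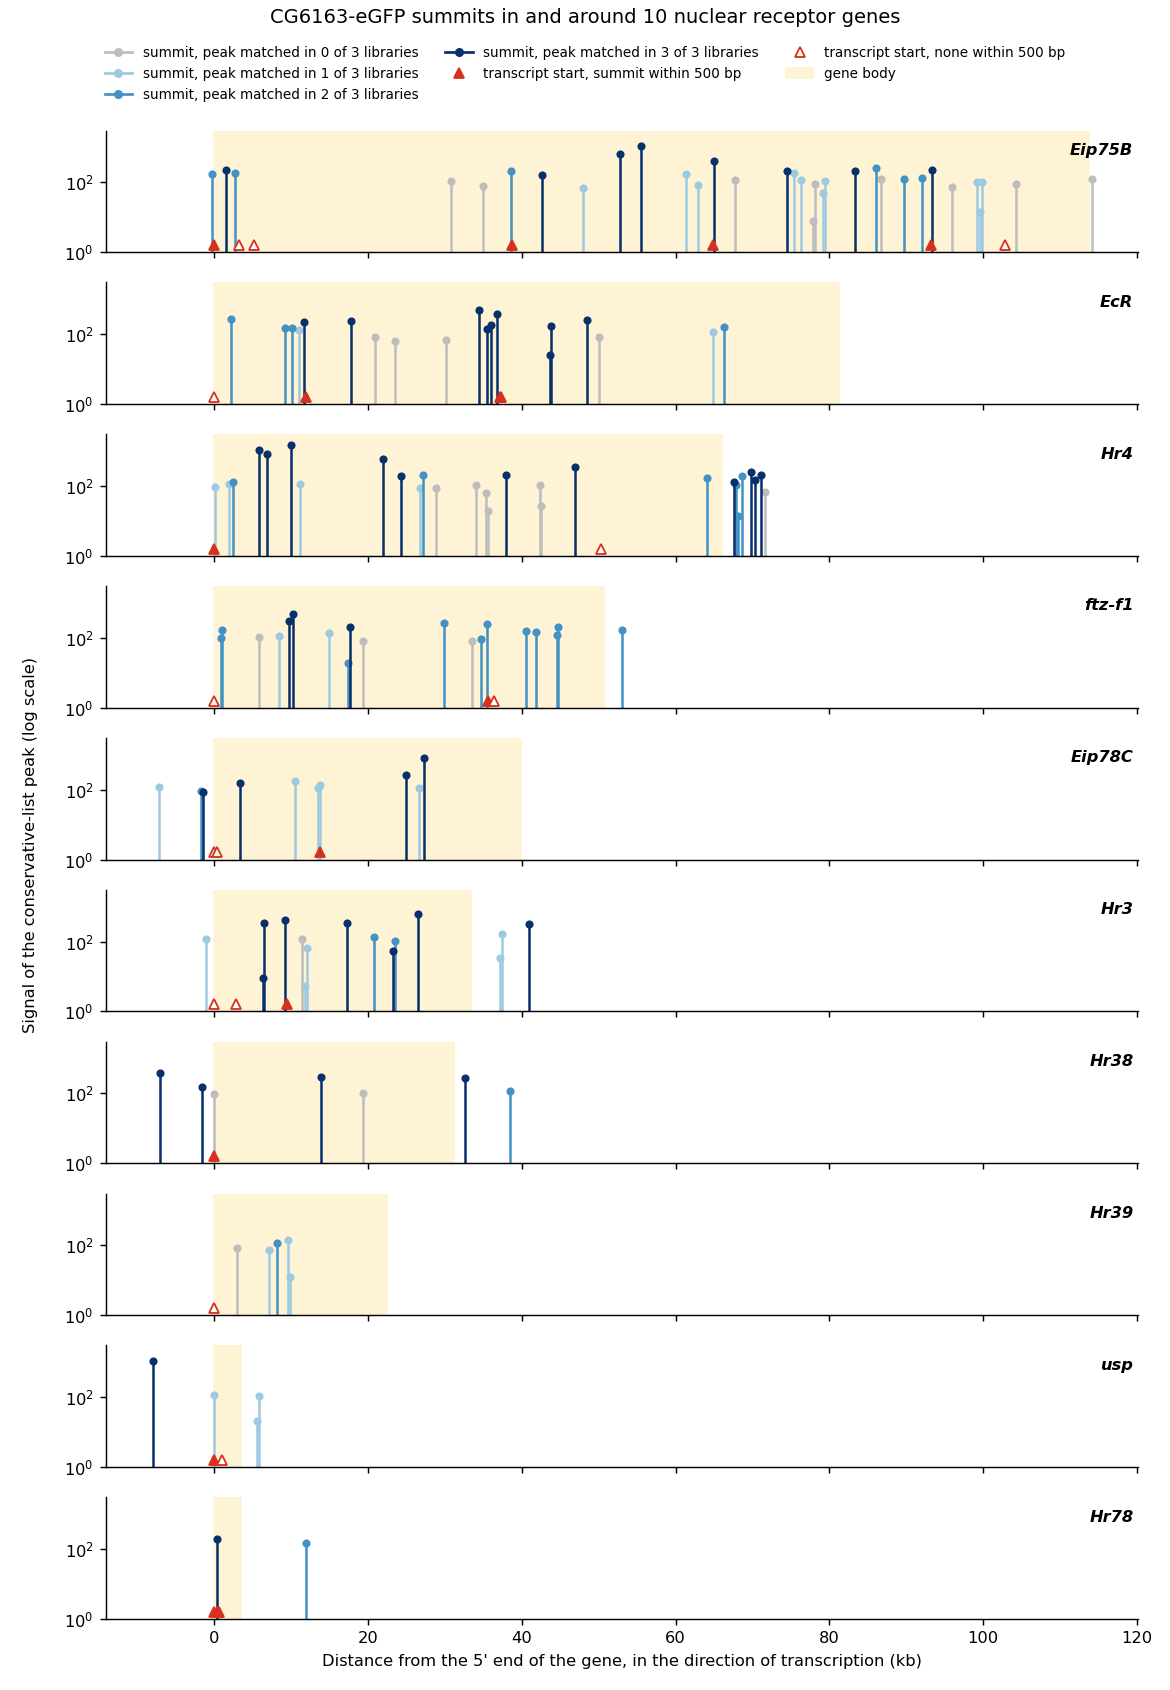
Summits of the conservative list in and within 10 kb of each gene, plotted as distance from the gene's 5′ end (kb, in the direction of transcription) against signal on a log scale. Colour gives the number of libraries whose thresholded list matched the peak, shading the gene body, and filled or open triangles the transcript starts with or without a summit within 500 bp. Strong, dark stems stand inside Hr4 (up to 1441), Eip75B (up to 1067) and Eip78C (831), away from the triangles.

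Hr3 encodes a receptor that represses early genes and activates ftz-f1. It spans 33.4 kb on 2R and held 11 summits, all intronic, or 3.30 per 10 kb. Only the most downstream of its 3 starts, shared by RA, RF and RH, had one. That peak had a signal of 422, the highest at any start of the 10 genes, with 156, 155 and 90.7 in replicates 1, 2 and 3. The summit lay 195 bp upstream of the start and also within 500 bp of a start of CG46321. An intronic peak 17140 bp downstream of the same start was stronger, at 628, with 227, 261 and 142. The starts of RD and of RC and RI had a thresholded peak in none of the libraries.

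Hr4, an early-late receptor that acts beside Hr3 in the switch to the prepupal genes, held the strongest peaks of the whole set. It spans 66.0 kb on the X chromosome and held 20 summits, or 3.03 per 10 kb. The first lay 9971 bp downstream of the upstream start, with a signal of 1441, rank 96 in the conservative list. It had 513, 590 and 362 in replicates 1, 2 and 3. Peaks of 1096 and 808 lay 5806 and 6792 bp downstream of that start, and a peak of 589 lay 21976 bp downstream. Each of the 4 was matched in every library. The upstream start itself, which 7 of its 9 transcripts share, had a signal of only 93.2. Replicate 2 called that peak in its thresholded list at 45.8, and replicates 1 and 3 held it in their ranked lists at 33.0 and 27.1. The downstream start, that of RE and RF, had none. Of the 20 summits, 7 were matched in all 3 libraries and 6 in none.

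Hr38 encodes the fly member of the NR4A (Nurr1) group and can pair with Usp. It was the sparsest long gene of the set, with 2 body summits in 31.1 kb on 2L, or 0.643 per 10 kb. Its single start had a summit with a signal of 94.4, which no library called in its thresholded list and which the ranked lists held at 34.6, 39.6 and 17.6. The stronger body summit, at 286, lay 13844 bp downstream and was matched in all libraries, with 97.9, 95.9 and 77.2. Within 10 kb outside the gene, peaks matched in every library lay 1603 bp and 7071 bp upstream of the start, with signals of 148 and 375, the latter at the start of a non-coding RNA gene. Another such peak, at 277, lay beyond the 3′ end at starts of CG2617 and Cen.

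Hr39, a relative of ftz-f1, was the only member with no conservative summit near its single start. The nearest lay 2889 bp downstream. It held 5 summits in 22.4 kb on 2L, all intronic, with signals from 12.5 to 144, and none was matched in all 3 libraries. In replicate 2 the ranked list held a peak near the start at 60.6, which the thresholded list did not keep.

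Hr78, which binds sequences that overlap those of the ecdysone receptor, is 3.48 kb long and lies on 3L. Its 3 starts lie within 553 bp of each other and shared 1 summit, in a non-coding exon, with a signal of 198. The 3 libraries had 93.1, 57.0 and 54.0 there, and all called it. The summit was also near a start of the antisense gene asRNA:CR43933, and peaks carry no strand.

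ftz-f1 encodes the competence factor that is expressed in the mid prepupa, when the hormone level is low. It was the densest of the long members, with 18 summits in 50.7 kb on 3L, or 3.55 per 10 kb. The start of RC and RD had a signal of 243, with thresholded peaks of 82.4 and 108 in replicates 1 and 2 and a ranked peak of 31.6 in replicate 3. The most upstream start, that of RB, lay 838 bp from the nearest conservative summit, yet replicates 1 and 3 had thresholded summits within 500 bp of it, at 74.2 and 63.3. The strongest ftz-f1 peak, at 490, lay in an intron 10261 bp downstream of the RB start, with 192, 195 and 117. Of its 18 summits, 3 were matched in all 3 libraries and 10 in exactly 2.

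**Figure D2:**
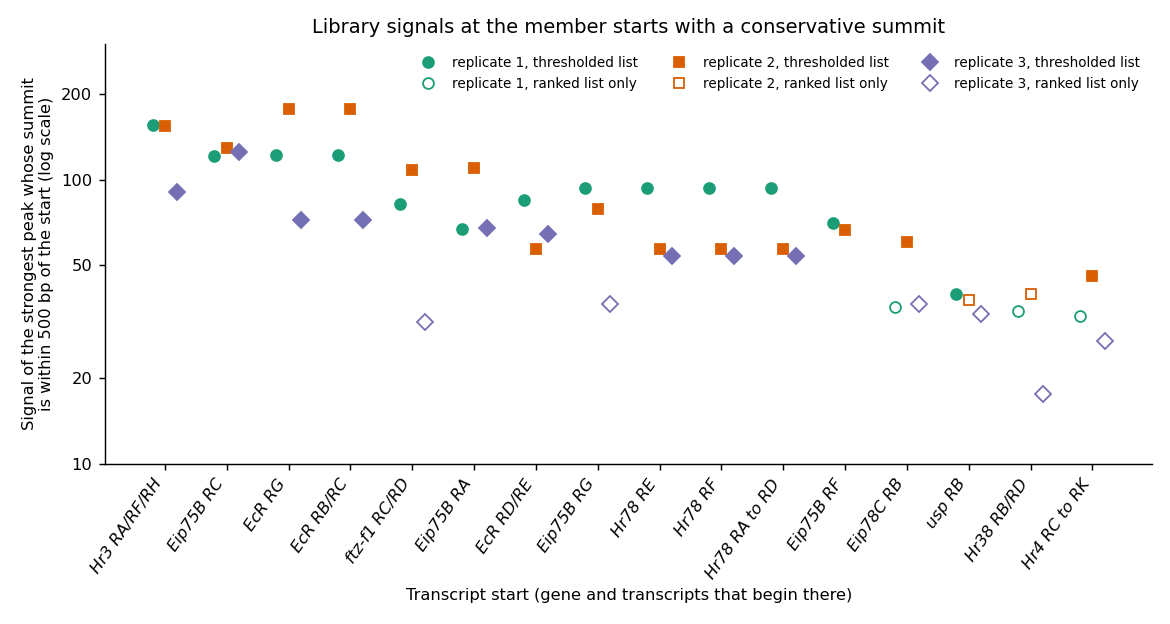
Signal in each library's own list (log scale) of the strongest peak whose summit lay within 500 bp of the 16 starts with a conservative summit, ordered by the conservative signal. Filled symbols are peaks of the thresholded list and open symbols peaks found only in the ranked list, and a missing symbol means no ranked summit there. The starts of Hr3, EcR, Hr78 and of Eip75B RC and RA have 3 filled symbols each, while Hr38 has none.

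Of the 16 starts with a conservative summit, 9 had a thresholded summit in all 3 libraries, 3 in 2 libraries, 3 in 1 and 1 in none. The 9 belonged to EcR, Hr3, Hr78 and Eip75B. Some share a peak, since the 3 Hr78 starts and 2 of the EcR starts lay near the same summits. The same split over all protein-coding starts with a conservative summit was not counted, so these counts have no background. Summits of the ranked lists, which hold many weak peaks, lay within 500 bp of 26, 26 and 25 of the 29 starts in replicates 1, 2 and 3. Of all distinct protein-coding starts, 58.3%, 57.0% and 62.3% had one.

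Most member summits lay in introns away from the starts, although usp and Hr78 had summits only at theirs. Of the 117 member summits, 107 lay in introns, 7 in non-coding exon sequence and 0 in coding exons, and the other 3 just upstream of a gene. Of the 114 body summits, 93.0% (exact binomial 95% interval 86.6 to 96.9%, counting error only) lay in no exon of any gene, which also leaves out 1 summit in an intron of its own gene but an exon of another. By the same rule the share was 78.6% for the summits in all protein-coding bodies. Only 14 of the 117 member summits lay within 500 bp of any protein-coding start, while 32.4% of all conservative summits did. Member summits lie by definition in a body or at a start, and most members are long genes. The whole list also holds summits between genes and in short genes. Neither this share nor the share in no exon was counted for genes of at least 10 kb. How far gene length accounts for these differences was not tested. By distance, 99 of the 117 member summits lay over 1 kb and 66 over 5 kb from the nearest start of their own gene. The median distance was 6579 bp. The start summits were fewer but not weaker. Their median signal was 202 for 14 summits, against 125 for the other 103, and over the whole list the medians were 147 at protein-coding starts and 135 elsewhere. Over all member summits the median signal was 130, beside 140 for the whole list.

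The top 10% of the conservative list by signal, which began at about 422, included 11 member summits. These were 9.40% of the member summits, close to the share of the list itself. All 11 lay in introns, all were matched in all 3 libraries, and 1 was at a start, that of Hr3. They belonged to 6 genes, with 4 in Hr4, 2 each in Eip75B and Hr3, and 1 each in Eip78C, ftz-f1 and EcR. Every one of the 16 member summits with a signal over 300 was matched in all 3 libraries, and the highest signal of a summit matched in none was 125. How often peaks this strong were matched in all 3 libraries over the whole list was not counted.

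At lower signal the libraries parted. In all, 38 member peaks were matched in 3 libraries, 26 in 2, 28 in 1 and 25 in none. The share matched in all 3 was 32.5% (24.1 to 41.8%), against 40.3% of all conservative peaks. A q-value above 0.05 was attached to 42 of the 117, or 35.9%, against 33.7% of the list. Of those 42, 3 were matched in all 3 libraries and 22 in none, whereas of the other 75, 35 were matched in all 3 and 3 in none. This split by q-value was not made over the whole list. The ranked lists of all 3 libraries, which hold many weak peaks, held a peak at 112 of the 117. The same share over all conservative peaks is not given, so this count stands without a background. A few matches are inherited from a neighbour. Peaks with summits closer than 250 bp made 12 of the 107 gaps between neighbouring summits, as in Hr3, where a summit of signal 9.01 stood beside one of 348 and both were matched in all 3 libraries. The 117 peaks merged into 103 regions.

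Long genes hold more summits, so counts were set against length. The members' median body length was 36.6 kb, against 2.17 kb for all protein-coding genes. At least 1 body summit was found in 9 members, against 18.7% of all protein-coding genes. Among genes of at least 10 kb, all 8 members had at least 1, while 37.7% of the 1977 genes had none. In the body or within 10 kb, all 10 members had at least 1, against 72.2% of all protein-coding genes. Together the bodies and their 10 kb surroundings held 142 summits, of which 28 lay outside the bodies. Among the 25 of these that were not at a member start, 17 lay at the start of another gene, for example of east and PIG-K beyond the 3′ end of Hr4. Among genes of at least 10 kb, the 8 long members had a median of 2.53 summits per 10 kb of body, with Hr38 lowest and ftz-f1 highest. The 1977 genes of that length had a median of 0.606 and a mean of 1.02. All 8 members lay above the median and 7 above the mean, all but Hr38. The members' median lay at percentile 87.8 of the long genes. In the libraries' own lists the members' medians were 1.51, 1.77 and 1.27 per 10 kb in replicates 1, 2 and 3, each above the mean of all long genes, which was 0.710, 0.743 and 0.527. In these lists 6, 7 and 6 of the 8 members lay above that mean, and the members' medians lay at percentiles 82.9, 85.9 and 85.8. The share of all long genes above the mean is not given for any of these lists. These are counts over genes in 1 set of animals, and no test of the difference was made.

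**Figure D3:**
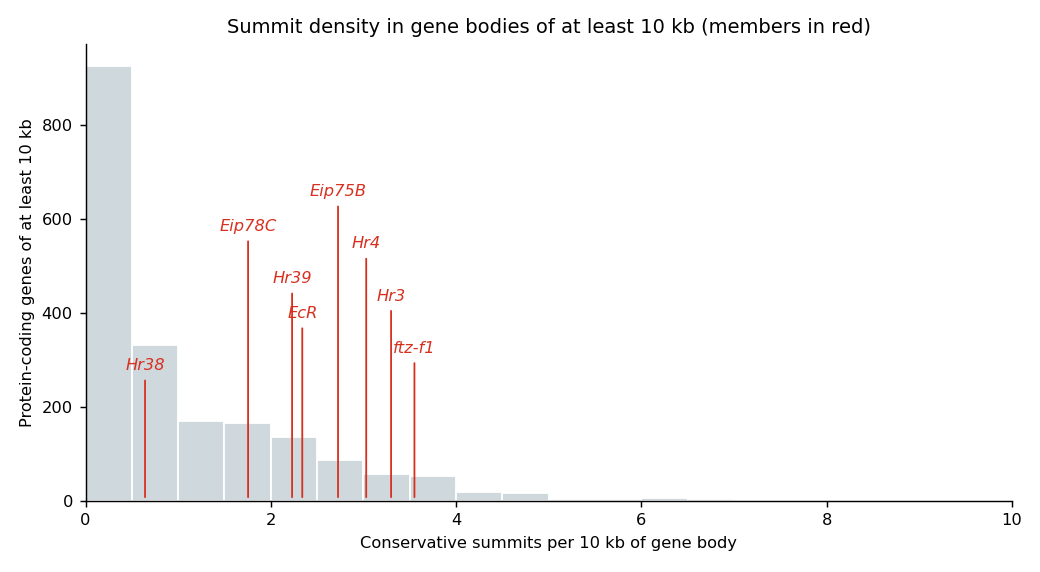
Number of protein-coding genes of at least 10 kb by conservative summits per 10 kb of gene body, with the 8 long members marked in red (the height of a red line has no meaning). Of the 1977 genes, 745 had no body summit, and the members run from 0.643 (Hr38) to 3.55 (ftz-f1).

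The genes closest to Eip75B in the number of thresholded body summits per library were Snoo, heca and CG43658. Eip75B had 20, 25 and 12 in replicates 1, 2 and 3. Snoo, which encodes a Ski family protein, had 20, 23 and 16, a summed difference of 6. heca had 19, 19 and 12, and CG43658 had 18, 21 and 14. All are long, at 93.0, 94.5 and 105.0 kb beside 113.7 kb for Eip75B. The likeness is over 3 libraries.

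The base composition of the windows differed with signal. Member windows had a median of 55.4% A and T, against 62.4% for all conservative windows. The 11 strongest member windows had 69.3%, the same as the top 10% of the list, and the 106 others 53.5%, against 61.4% for the others of the list. Member windows at starts had 50.5%, against 57.4% for all windows at protein-coding starts.

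Motifs were searched on both strands of each window. GAGAG, the core of the sites of GAGA factor, occurred in 33 of the 117 member windows, or 28.2%, against 16.3% of all conservative windows. Few of the 33 were matched in all 3 libraries. Those few lay in EcR, at signals of 260 and 137, and in Eip75B, at 231 and 660. The same share over all conservative windows with GAGAG was not counted. GAGAG was in 6 of the 14 start windows, against 19.8% of all windows at protein-coding starts, and in 1 of the 11 strongest windows, against 8.26% of the top 10% of the list. By gene, it was in 11 windows of Eip75B, 7 of EcR and 6 of ftz-f1. Windows outside the top 10% held it in 30.2% of members and in 17.1% of the list. AGGTCA, the sequence that a single nuclear receptor subunit recognises, occurred in 3 windows, or 2.56%, against 1.68%. These were 2 in Eip75B and 1 in Hr3, with signals of 86.9, 170 and 5.32, and none was matched in more than 1 library. The longer AAGGTCA, which contains it, was in 1 of the Eip75B windows, or 0.855%, against 0.615%. A pair of AGGTCA copies facing each other with 1 base between, as the ecdysone receptor binds, was sought with at most 2 mismatches and found in 1 window, that weak Hr3 summit, against 0.147% of the list. TATAAA was in 11 windows, or 9.40%, against 15.7%, and GATAA in 14 windows, against 18.7% of the list. TATCGATA, the site of DREF, was in 0 member windows and 0.679% of the list, and CACGTG in 0 and 0.900%. With 117 windows, motifs this rare would be seen in about 1 window or none at the share of the list.

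**Figure D4:**
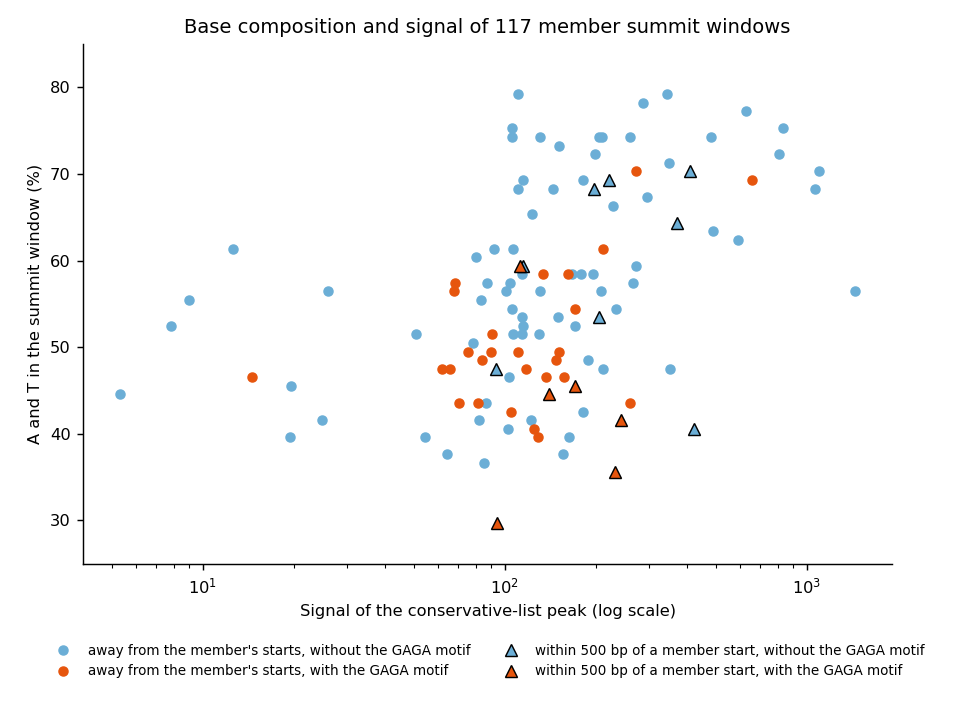
Share of A and T (%) in the 117 member summit windows against the signal of the peak (log scale), with triangles for summits within 500 bp of a member start and orange for windows that hold GAGAG. Windows with signals of about 422 or more lie mostly high in the plot, with a median of 69.3%, and 1 of them is orange.

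Other genes of the ecdysone response were counted by the same rule. By that rule 24.2% of all protein-coding genes had a summit at a start, and 48.1% of those of at least 10 kb. Among 11 other nuclear receptor genes, 4 had a summit at a start, with Hr96 (a receptor linked to lipid metabolism) at 620, eg at 351 and ERR (the estrogen-related receptor, a regulator of glycolysis) at 310. Of 9 early ecdysone-induced regulators, 8 had one, led by E23 (a membrane transporter) at 1001, Eip93F (a regulator of metamorphosis) at 664 and Eip63F-1 (a calcium-binding protein) at 401. Of 10 cofactors of the ecdysone receptor, 6 had one, with Hsp83 (the fly Hsp90 chaperone) at 747, tai (a coactivator) at 389 and Nup98-96 (a nuclear pore protein gene) at 274. Of 9 genes for ecdysteroid synthesis, entry and breakdown that were found in the annotation, 2 had one, Oatp74D (the ecdysone importer) at 165 and shd (the last enzyme of hormone synthesis) at 109. With only peaks matched in all 3 libraries, for which no share of all genes was counted, the counts were 3, 5, 2 and 0 in these lists. In the last list, both bound genes thus lost their call. These lists differ in gene length, and the early regulators, with a median of 53.4 kb, were longer than the members, so the counts describe each list and were not tested against each other.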

How the data were processed

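ChIP-seq peak lists on dm6 were used as deposited. Per the labels and the deposited notes, each library's lists came from its own alignment plus 1 shared file, and the series lists from all 3 libraries. For the conservative list, the libraries that were compared are not stated. Which aligner and which peak caller were used is not given in the sources used here. Peaks were kept by the authors by their IDR (irreproducible discovery rate), a measure of how well peak ranks repeat. The deposited score rises as the IDR falls and was not used further. The deposited signal was ranked within its own list only, and signals of different lists are set side by side without comparison. The deposited −log10 q-value and −log10 IDR served as filters.

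Genes, transcript starts and exons came from Ensembl release 115 (dm6 coordinates), and sequence from RefSeq of the same assembly. A summit was assigned to a gene when it lay in the body, within 500 bp of a start, or within 10 kb. Motif windows spanned 101 bases. Named genes were all members, up to 3 bound genes per other list by signal, the 3 genes most like Eip75B, and neighbours with a start at a counted summit. The symbol phm matched no annotated gene, and Eip71CD and FKBP39 were found under newer symbols. Members and lists were chosen with earlier results of these data known, so no test was made over them. Labels call the libraries biological replicates. No interval here covers more than counting error. The counting functions were tested on simulated data. Python 3.11.15 was used with pandas 2.3.3, NumPy 2.4.6, matplotlib 3.10.9 and SciPy 1.17.1.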

Additional observations from a re-analysis of the deposited data

How the results depend on the processing

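Of 104 alternative values, 51 stayed within 1.5 times the reported count, or within the interval or spread used for a share or median, and 53 moved further; none has a test. The number of members bound at a start was 5 with an IDR of at most 0.001, 4 with only peaks matched in all 3 libraries, 5 from the list of replicate 3 alone, and 4 to 5 when 1 replicate was left out and the others both had to match. The number of starts was 10 with a window of 200 bp, 9 with peaks matched in all 3, 10 from replicate 3, and 9 to 12 without 1 replicate. Body summits were 63 with the IDR limit, 73 with a q-value of at most 0.05, 38 matched in all 3, 71 and 57 from the lists of replicates 1 and 3, and 41 to 57 without 1 replicate. Summits within 10 kb were 84, 92, 48, 91 and 73 under the same settings, and 51 to 71. The share matched in all libraries was 56.3% with the IDR limit, 46.7% with the q limit, 23.1% when both peaks had to overlap by at least 50%, and 35.0 to 49.6% without 1 replicate. The median signal was 114 in the series list of 12445 peaks, 206, 188 and 263 with the IDR limit, the q limit and all 3 libraries, and 210 to 233 without 1 replicate. Over genes of at least 10 kb the background share bound was 48.1% and the median number of body summits 1, both with the unfiltered conservative list. The counts and shares above were not taken over all genes, starts or peaks under the same settings. Whether the members fell more or less than genes in general is therefore not known. The ratio of the long members' median density to the mean of long genes, 2.49, was 1.79 with peaks matched in all 3, 2.48 with merged regions, 2.59 with the q limit, and 1.63 to 2.11 without 1 replicate, lowest without replicate 1 (settings chosen after seeing the data). Members with the AGGTCA motif were 0 and 8 windows at 25 and 100 bp to each side of the summit. Peaks carry no read depth, so a start without a summit is not shown to be unbound. No paired analysis was possible because there is a single group of libraries. The causes of these shifts were not tested, beyond that stricter settings keep fewer peaks.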
